A study of Yarrowia lipolytica with 4 samples.

Results

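Yarrowia lipolytica is an oil-storing yeast, and 5 of its genes for the synthesis of leucine, valine and isoleucine are described here in 2 strains grown in rich YPD medium. They were chosen by identifier: the acetolactate synthase small subunit gene YALI0_C09636g, the 3-isopropylmalate dehydratase gene YALI0_B01364g, the 3-isopropylmalate dehydrogenase gene LEU2 (YALI0_C00407g), and the branched-chain aminotransferase genes BAT1 (YALI0_D01265g) and TWT2 (YALI0_F19910g). All 5 were found among the 8381 genes held by both deposited tables, and all 5 passed the filter on low counts that left 6051 genes to test. One strain, ku70∆::tc sur2∆::LEU2, is a PO1f strain with KU70 disrupted and with SUR2, the C4-hydroxylase gene of sphingoid bases, replaced by LEU2; it is called the sur2 deletion strain. The other, ku70Δ::tc, is a PO1f strain with KU70 alone disrupted, labelled WT and called the parent. Both strains therefore lack an intact KU70, which belongs to DNA end joining. PO1f carries a nonfunctional leu2 allele and needs added leucine, and the labels name LEU2 for the sur2 deletion strain and not for the parent. Loss of SUR2 and gain of a LEU2 marker cannot be told apart in this design, and the marker is itself a gene of the pathway described.

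Each strain had 2 libraries of mRNA from cells at an OD600 of 0.8 and 28 °C, and nothing in the labels states whether each came from its own culture. The deposited values came as a transcript table and a gene table, each with 1 library per strain, and each library is named accordingly. The sur2 deletion libraries held 16698719 and 8765729 counts and the parent libraries 16585818 and 13972149, in the order of transcript and gene table. SUR2 (YALI0_E17347g) had 0 and 0 reads in the sur2 deletion libraries and 1402 and 1319 in the parent libraries, as labelled. KU70 (YALI0_C08701g) had 52 and 14 reads in the sur2 deletion libraries and 89 and 23 in the parent libraries, so both strains still had reads over this gene. Bulk libraries cannot tell less RNA of a gene in every cell from fewer cells that express it.

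The 3 branched-chain amino acids are made by a partly shared route. Threonine dehydratase makes the 2-oxobutanoate that leads to isoleucine. Acetolactate synthase, ketol-acid reductoisomerase and dihydroxy-acid dehydratase then act in mitochondria on the valine and the isoleucine route alike. The leucine branch leaves the valine route at 2-isopropylmalate synthase and goes on through 3-isopropylmalate dehydratase and 3-isopropylmalate dehydrogenase. Branched-chain aminotransferases add the amino group in the last step of all 3 routes, and the same reaction run backwards is the first step of breakdown. In Saccharomyces cerevisiae the regulator Leu3 acts on leucine branch genes with 2-isopropylmalate as its signal, and Gcn4 raises amino acid synthesis genes under starvation.

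The 3-isopropylmalate dehydratase gene and both aminotransferase genes stood lowest in the sur2 deletion strain relative to the parent, at 0.164, 0.232 and 0.311 of the parent's level for the dehydratase, BAT1 and TWT2. The acetolactate synthase small subunit gene was at 0.557 of the parent's level and LEU2 at 0.742. No member passed edgeR's quasi-likelihood test at an adjusted p of 0.05 over all genes, a threshold that 0.248% of tested genes passed with lower and 0.992% with higher levels in the sur2 deletion strain. In a fit blocked by table the 3-isopropylmalate dehydratase gene passed (edgeR's adjusted p = 0.044) and the other 4 members did not. That fit called 33 genes lower and 112 higher of the 6051 tested, against 15 and 60 in the fit without the block. At an unadjusted p under 0.05 edgeR put 3 of the 5 lower and 0 higher, against 4.03% and 8.4% of all tested genes (12.4% in either direction). With DESeq2 the same 3 genes were lower at an adjusted p under 0.05 and 0 were higher, against 2.05% and 4.33% of all tested genes. The median log2 fold change was -1.69 over the 5 members and 0.03 over all tested genes. For 4 of the 5 the groups did not overlap with the sur2 deletion strain lower, against 20.2% of all tested genes (22.1% with the sur2 deletion strain higher). A log2 ratio of -1 or lower was found for 3 members within the transcript table and for 4 within the gene table, against 5.55% and 11.3% of all tested genes. These members were chosen with earlier results of these libraries known, so the counts describe them and are no independent evidence of a direction. With 2 libraries against 2 an exact two-sided permutation test cannot go below p = 0.333.

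**Figure D1:**
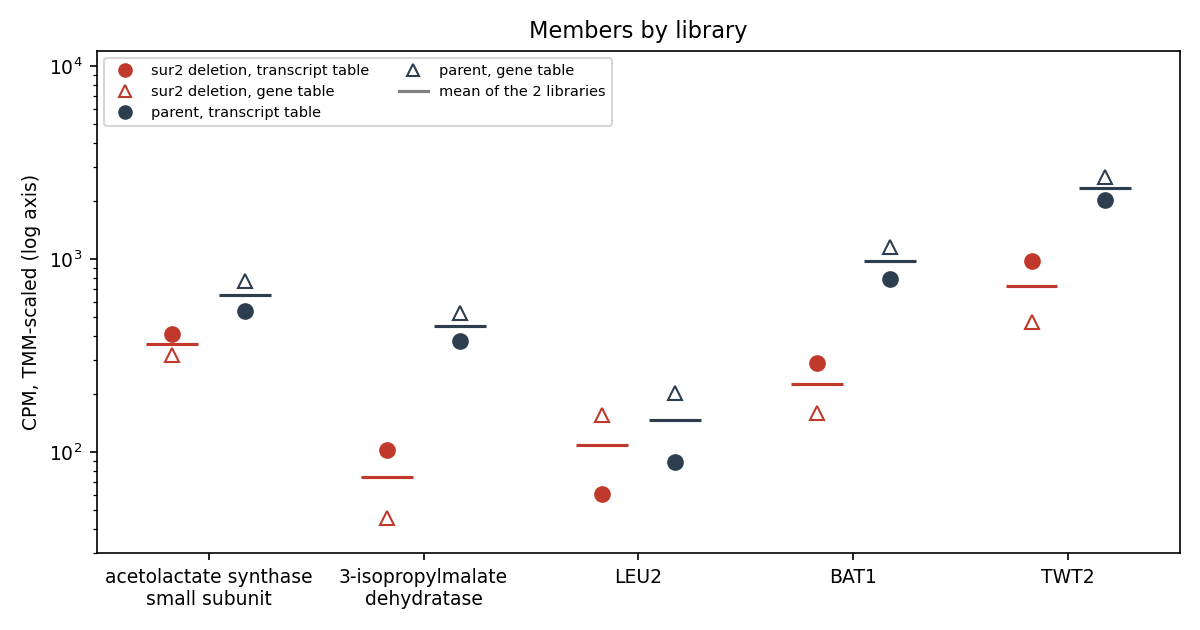
Levels in CPM (counts per 1000000 counts, scaled by trimmed mean factors, log axis) of the 5 members in each of the 4 libraries, with sur2 deletion libraries left of parent libraries, circles for the transcript table, triangles for the gene table and a line at the mean of the 2 libraries. The strains do not overlap for 4 genes, and for LEU2 the tables lie farther apart than the strains.

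The 3-isopropylmalate dehydratase gene (YALI0_B01364g, chromosome B, 228679 to 230970, minus strand) encodes the iron-sulfur enzyme that isomerises 2-isopropylmalate in the leucine branch. It had 1755 and 445 reads in the sur2 deletion libraries of the transcript and gene tables, against 6475 and 6239 reads in the parent libraries. That is 102 and 45.5 CPM in the sur2 deletion libraries, against 378 and 528 CPM in the parent libraries, where CPM are counts per 1000000 of a library total scaled by its trimmed mean factor. Both sur2 deletion libraries were below both parent libraries, and the sur2 deletion libraries differed 2.25-fold from each other, against 1.4-fold between the parent libraries. The means were 74 ± 40.3 CPM in the sur2 deletion strain and 453 ± 106 CPM in the parent (SD, n = 2 each). The log2 fold change was -2.61 ± 0.51 (SE), with a 95% interval of -3.79 to -1.43 (edgeR's adjusted p = 0.0602, rank 93 by p). A blocked edgeR fit, with the table as a second term, gave -2.71 and an adjusted p of 0.044, which passes the threshold. DESeq2 gave -2.64 with an adjusted p of 3.15e-06. Within single tables the log2 ratios of sur2 deletion over parent were -1.88 (transcript table) and -3.53 (gene table), and 0.959% and 0.545% of tested genes had a lower ratio there. The log2 fold change was -3.32 and -2.14 without the sur2 deletion library from the transcript and the gene table. It was -2.88 and -2.35 without the parent library of each, and stayed between -3.32 and -2.14 over all alternatives.

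LEU2 (YALI0_C00407g, chromosome C, 46411 to 46866, plus strand) encodes the next enzyme of the leucine branch, and it is the marker that took the place of SUR2. Its reads numbered 1040 and 1528 in the sur2 deletion libraries and 1532 and 2400 in the parent libraries. The levels were 60.7 and 156 CPM in the sur2 deletion libraries and 89.4 and 203 CPM in the parent libraries, so the strains overlapped. In both strains the library of the gene table was the higher one, 2.57-fold in the sur2 deletion strain and 2.27-fold in the parent. The log2 fold change of -0.43 ± 0.55 had a 95% interval of -1.69 to 0.83, which spans lower and higher levels in the sur2 deletion strain (edgeR's adjusted p = 0.845). Its sign turned without the transcript table's sur2 deletion library, at 0.09, and without the parent library of the gene table, at 0.28, and it was -1.27 without the gene table's sur2 deletion library and -0.94 without the parent library of the transcript table. The direction within the gene table also depended on the scaling. With trimmed mean factors the log2 ratio there was -0.38, while the deposited TPM, a unit scaled for length and library size, stood at 492 in the sur2 deletion library and 376 in the parent library. In the transcript table TPM were 152 in the sur2 deletion library and 207 in the parent library, and the log2 ratio of CPM was -0.56.

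LEU2 levels were thus not higher in the sur2 deletion strain beyond the spread between libraries, and the parent, whose labels name no LEU2 marker, had reads as well. The annotated model spans 456 bases, the shortest of the 5 members, against 867 to 2292 bases for the others. It is shorter than a full-length LEU2 gene, and whether the annotated genome carries a shortened leu2 allele was not checked here, so the count may cover only a piece of the gene. Reads of the host's own leu2 locus and of the marker cannot be told apart in a count per gene, and marker sequence outside those 456 bases is not in this count. Of the genes on either side of LEU2, the nearest to the left (YALI0_C00385g) was at a log2 fold change of 0.08 ± 0.52 and the nearest to the right, the GAL83-like gene YALI0_C00429g, at -0.92 ± 0.49. The farther ones, the CHD1-like gene YALI0_C00363g and the dicarboxylic amino acid permease gene YALI0_C00451g, were at -1.04 ± 0.42 and -1.42 ± 0.58 (SE, edgeR's adjusted p = 0.359 for both).

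BAT1 (YALI0_D01265g, chromosome D, 141921 to 143087, minus strand) is similar to the mitochondrial branched-chain aminotransferase of S. cerevisiae. It had 4981 and 1565 reads in the sur2 deletion libraries and 13605 and 13602 in the parent libraries. The levels were 291 and 160 CPM in the sur2 deletion libraries, against 794 and 1151 CPM in the parent libraries. The groups did not overlap: the higher sur2 deletion library, of the transcript table, lay below the lower parent library, of the same table. The log2 fold change was -2.11 ± 0.49, with a 95% interval of -3.24 to -0.97 (edgeR's adjusted p = 0.108, DESeq2's 1.14e-04). Within tables the log2 ratios were -1.45 and -2.84 in the transcript and gene table, and 1.98% and 1.06% of tested genes had lower ratios. The log2 fold change ran from -2.61 to -1.74 over the alternatives. It was -2.61 without the transcript table's sur2 deletion library and -1.815 without the parent library of the gene table.

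TWT2 (YALI0_F19910g, chromosome F, 2663149 to 2664270, plus strand) is similar to the cytosolic branched-chain aminotransferase of S. cerevisiae, and it was the most abundant of the 5 in the parent. It had 16822 and 4611 reads in the sur2 deletion libraries and 34566 and 31476 in the parent libraries. The levels were 982 and 472 CPM in the sur2 deletion libraries, against 2016 and 2662 CPM in the parent libraries. These groups did not overlap either, and the sur2 deletion libraries differed 2.08-fold, against 1.32-fold between the parent libraries. The log2 fold change was -1.69 ± 0.52, with a 95% interval of -2.88 to -0.49 (edgeR's adjusted p = 0.22, DESeq2's 0.00529). Within tables the log2 ratios were -1.04 and -2.50 in the transcript and gene table, with 4.97% and 1.34% of tested genes lower. Without the transcript table's sur2 deletion library TWT2 was at -2.31, and it was at -1.25 without that of the gene table. Without the parent library of the transcript and of the gene table it was at -1.92 and -1.47.

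The 2 aminotransferase genes were set against each other within libraries by TPM, which allows for length. The sum of BAT1 and TWT2 was 849 and 502 TPM in the sur2 deletion libraries of the transcript and gene table, and 1781 and 1803 TPM in the parent libraries. TWT2 exceeded BAT1 by 3.54-fold and 3.1-fold in the sur2 deletion libraries and by 2.67-fold and 2.43-fold in the parent libraries. BAT1, of the mitochondrial kind, thus made up a smaller part of the pair in both sur2 deletion libraries than in either parent library. No test was made of this ratio beyond its values, since 2 libraries against 2 allow none below p = 0.333 in an exact permutation test.

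The acetolactate synthase small subunit gene (YALI0_C09636g, chromosome C, 1314918 to 1315784, plus strand) is similar to the regulatory subunit of S. cerevisiae, through which valine inhibits the enzyme. It had 7045 and 3108 reads in the sur2 deletion libraries and 9234 and 9116 in the parent libraries. The levels were 412 and 318 CPM in the sur2 deletion libraries, against 539 and 771 CPM in the parent libraries, without overlap. Its log2 fold change of -0.84 ± 0.43 had a 95% interval of -1.83 to 0.15, which includes no difference (edgeR's adjusted p = 0.5, DESeq2's 0.287). The log2 ratio was -0.39 in the transcript table, where 25.7% of tested genes were lower, and -1.28 in the gene table, where 6.92% were. It ran from -1.12 to -0.56 over the alternatives and passed under none of the 9.

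**Figure D2:**
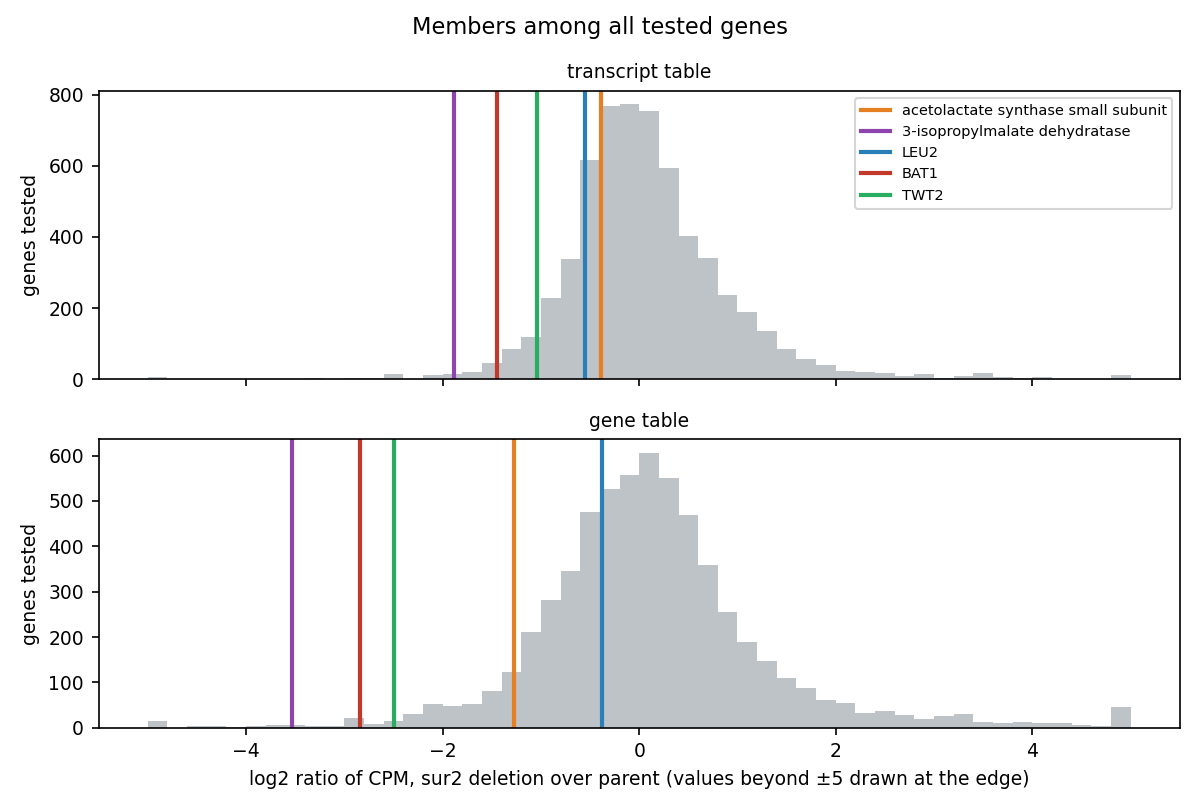
Log2 ratios of CPM, sur2 deletion over parent, of all 6051 tested genes within the transcript table (top) and the gene table (bottom), as histograms of the number of genes, with a line for each member. The 3-isopropylmalate dehydratase gene, BAT1 and TWT2 lie in the lower tail in both tables, and the histogram of the gene table is the wider one.

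The 4 members other than LEU2 had larger differences in the gene table than in the transcript table. All tested genes were spread more widely there as well, with a standard deviation of log2 ratios of 1.24 for the gene table and 0.884 for the transcript table. The 5th and 95th percentiles were -1.51 and 2.14 in the gene table and -1.04 and 1.47 in the transcript table. Depth moved with this: the sur2 deletion library of the gene table was the shallowest of the 4, and its part in the wider spread was not tested. For the 3-isopropylmalate dehydratase gene the 95% counting interval of the log2 ratio ran over -1.96 to -1.81 within the transcript table and -3.67 to -3.40 within the gene one.

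Levels per length were ordered alike in both parent libraries. By TPM TWT2 stood first in the parent, at 1295 and 1277 TPM in the transcript and gene table. BAT1 followed at 486 and 526 TPM, the small subunit gene at 478 and 517 TPM, LEU2 at 207 and 376 TPM and the 3-isopropylmalate dehydratase gene at 107 and 110 TPM. BAT1 and the small subunit gene did not differ beyond their spread between the tables, which were normalised separately. In the sur2 deletion strain TWT2 was at 662 and 379 TPM, the small subunit gene at 385.1 and 357.7, BAT1 at 187 and 123 and the 3-isopropylmalate dehydratase gene at 30.2 and 15.9, with LEU2 at 152 and 492. In the sur2 deletion strain the small subunit gene was thus above BAT1 in both tables. LEU2's place there depended on the table and on the length used. As CPM per kilobase of its whole 456 bases, with library totals unscaled, LEU2 of the gene table was at 382 in the sur2 deletion library and 377 in the parent library. On that scale TWT2 and the small subunit gene were above LEU2 in the gene table's sur2 deletion library, at 469 and 409.

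Over the 4 libraries the profiles of 3 members lay nearest to each other. As Euclidean distance between log2 CPM centred on each gene's own mean, BAT1 and TWT2 were 0.415 apart, the 3-isopropylmalate dehydratase gene and BAT1 0.602, and the 3-isopropylmalate dehydratase gene and TWT2 0.944. The small subunit gene was 1.06 from TWT2, little more than that last distance, 1.36 from BAT1 and 1.96 from the 3-isopropylmalate dehydratase gene. LEU2 was 2.91 from the 3-isopropylmalate dehydratase gene, and 48% of tested genes were nearer to that gene than LEU2. Among 3552 described genes with a mean of at least 10 CPM, those nearest to the 3-isopropylmalate dehydratase gene were the ABC transporter gene PDR15 (YALI0_B02544g, distance 0.288), the triacylglycerol lipase gene YALI0_A20350g (0.41) and YALI0_F05038g (0.563). The last is annotated as the beta chain of the 3-methyl-2-oxobutanoate dehydrogenase, which breaks down the keto acids of branched-chain amino acids. The lipase gene YALI0_A20350g was also nearest to BAT1 (0.238), followed by the threonine aldolase gene YALI0_A21417g (0.361) and the ribosomal protein gene YALI0_E00550g, similar to RPL14A (0.383). These last 2 genes were nearest to TWT2 as well (0.069 and 0.109), before a mitochondrial oxaloacetate carrier gene (YALI0_E04048g, 0.206). Nearest to LEU2 were YALI0_F11605g (0.231), the phosphoglycerate kinase gene YALI0_D12400g (0.318) and the glutamate synthase gene GLT1 (YALI0_B19998g, 0.325). The annotation of YALI0_F11605g gives only weak similarity to another Y. lipolytica gene and no function. Nearest to the small subunit gene were the mitochondrial ribosomal protein S19 gene YALI0_B22594g (0.068), the dynein light chain gene YALI0_D07700g (0.077) and the SMD2 gene YALI0_F06644g (0.088). The median distance to the described genes ran from 1.12 for the small subunit gene to 2.89 for the 3-isopropylmalate dehydratase gene. Distances of different members are therefore not directly comparable. These distances describe 4 libraries and were not tested.

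The other 5 genes of the synthesis route, found by their annotation, had log2 fold changes from -0.91 to 0.29. None passed edgeR's or DESeq2's test or an unadjusted p under 0.05 in edgeR. Of all tested genes 1.24% passed edgeR's test and 12.4% its unadjusted p under 0.05. DESeq2 called 2.05% lower and 4.33% higher. The median log2 fold change of these 5 genes was -0.40. It was -0.87 and -0.16 without the parent library of the transcript and of the gene table. Without the transcript table's sur2 deletion library it was -0.80. ILV3 (YALI0_C23408g), for dihydroxy-acid dehydratase, was at -0.91 ± 0.53, with 179 and 66.9 CPM in the sur2 deletion libraries and 170 and 292 CPM in the parent libraries. Its libraries overlapped, and its log2 ratio was near 0 in the transcript table, at 0.07, and at -2.12 in the gene table. Without the transcript table's sur2 deletion library it was at -1.79. The 2-isopropylmalate synthase gene (YALI0_B07447g), for the entry to the leucine branch, was at -0.68 ± 0.43, with 415 and 306 CPM in the sur2 deletion libraries and 469 and 683 CPM in the parent libraries. It was the only one of these 5 genes whose groups did not overlap. Of all tested genes 20.2% did not overlap with the sur2 deletion strain lower, and 22.1% with it higher. ILV5 (YALI0_D03135g), for ketol-acid reductoisomerase, was at -0.40 ± 0.45, with a 95% interval of -1.43 to 0.64. Its direction in the gene table depended on the scaling. The log2 ratio of CPM there was -0.29, while deposited TPM were 488 in the sur2 deletion library and 356 in the parent library. In the transcript table TPM were 254 and 355, in the same order. The catalytic subunit gene of acetolactate synthase (YALI0_C00253g, 16529 bases from LEU2 on chromosome C) was at -0.37 ± 0.50, with opposite ratios of 0.63 for the transcript table and -1.25 for the gene table. ILV1 (YALI0_D02497g), for threonine dehydratase, was at 0.29 ± 0.40, the only gene of the 10 in the route with a value above 0.

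Neighbouring steps were set against each other by TPM within libraries. The 3-isopropylmalate dehydratase gene reached 0.18 and 0.108 of the TPM of the 2-isopropylmalate synthase gene in the sur2 deletion libraries, against 0.588 and 0.562 in the parent libraries. The small subunit gene of acetolactate synthase exceeded the catalytic subunit gene by 3.75-fold and 4.98-fold in TPM in the sur2 deletion libraries and by 7.54-fold and 5.04-fold in the parent libraries. That excess differed little between the strains in the gene table, while in the transcript table it was smaller in the sur2 deletion library.

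**Figure D3:**
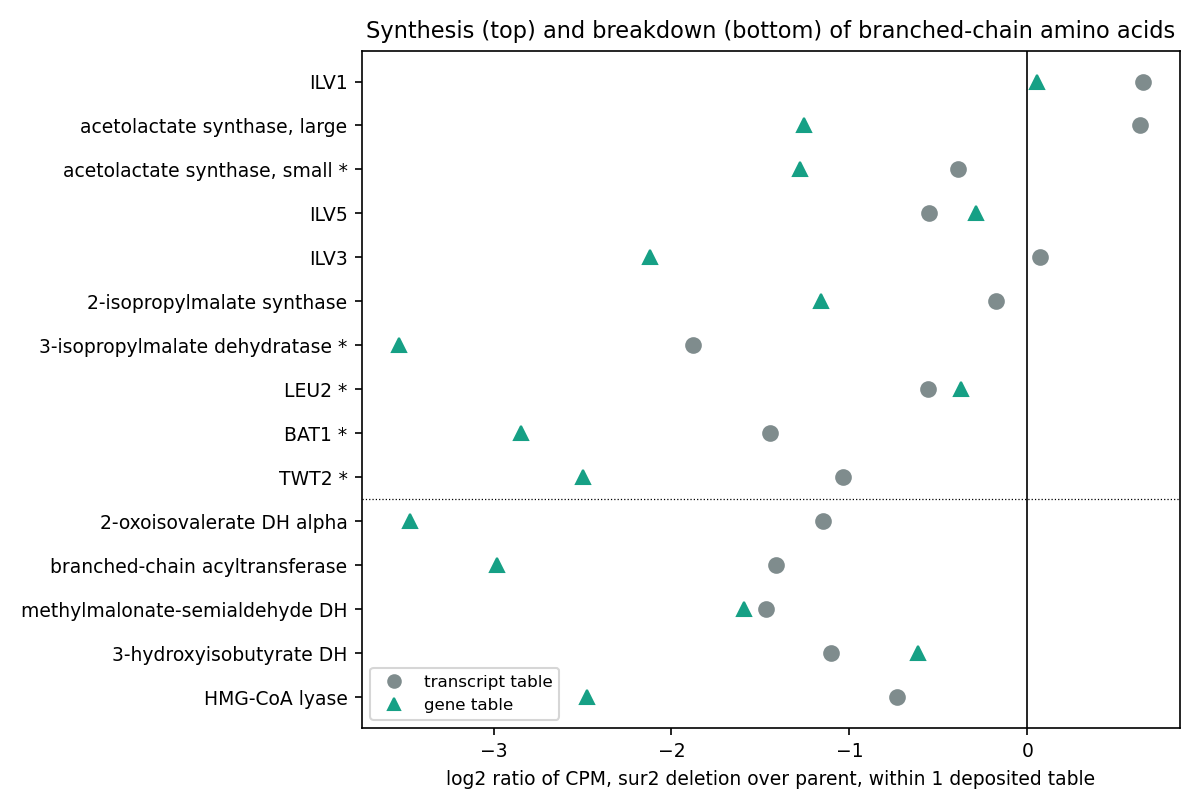
Log2 ratio of CPM, sur2 deletion over parent, within the transcript table (circles) and the gene table (triangles), for the 10 genes of branched-chain amino acid synthesis in the order of the route and, below the dotted line, 5 genes of breakdown, with an asterisk after each of the 5 members (DH, dehydrogenase). All 5 breakdown genes and all 5 members lie left of 0 in both tables, and ILV1 right of 0.

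Of 5 genes found by annotation for the breakdown of the same amino acids, none passed edgeR's test over all genes, which 0.248% of tested genes passed with lower levels. All 5 had lower CPM in both sur2 deletion libraries than in both parent libraries, against 20.2% of all tested genes. All 5 had an unadjusted p under 0.05 in edgeR and 4 passed DESeq2's test, against 4.03% and 2.05% of all tested genes with lower levels. Their median log2 fold change was -1.53, and it was -2.21 without the transcript table's sur2 deletion library and -1.14 without that of the gene table. Without the parent library of the transcript and of the gene table that median was -1.70 and -1.82. The alpha subunit gene of 2-oxoisovalerate dehydrogenase (YALI0_D08690g), which commits branched-chain keto acids to breakdown, had 428 and 84.6 CPM in the sur2 deletion libraries, against 950 and 939 CPM in the parent libraries. Its log2 fold change was -1.88 ± 0.71 (edgeR's adjusted p = 0.309, DESeq2's 0.0276), and its sur2 deletion libraries differed 5.06-fold. The acyltransferase subunit gene of the same complex (YALI0_D23815g) had 295 and 73.6 CPM in the sur2 deletion libraries, against 787 and 582 CPM in the parent libraries (-1.89 ± 0.65, edgeR's adjusted p = 0.271). The methylmalonate-semialdehyde dehydrogenase gene YALI0_C01859g, of valine breakdown, had nearly the same log2 ratio of CPM in the transcript and gene tables, -1.47 and -1.59. Its fitted value was -1.51 ± 0.48 (edgeR's adjusted p = 0.241, DESeq2's 0.0148). By deposited TPM the difference was smaller in the gene table, at 102 in the sur2 deletion library against 183 in the parent library. In the transcript table these were 150 against 397 TPM. The hydroxymethylglutaryl-CoA lyase gene YALI0_B22550g, of leucine breakdown, was at -1.53 ± 0.51, and the 3-hydroxyisobutyrate dehydrogenase gene YALI0_F02607g at -0.89 ± 0.36. The direction of YALI0_F02607g in the gene table depended on the scaling. Its deposited TPM there were 63.23 in the sur2 deletion library and 57.75 in the parent library, against 58.56 and 119.85 in the transcript table. The beta chain gene YALI0_F05038g, named above for its profile and not caught by the text search, had 354 and 96.8 CPM in the sur2 deletion libraries, against 1140 and 1230 CPM in the parent libraries (log2 fold change -2.39, edgeR's adjusted p = 0.158).

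Synthesis genes of other amino acids lay on both sides of 0. Of 45 such genes, 26 had log2 fold changes below 0, against 48% of all tested genes, and their median was -0.05. In edgeR's test 2 rose and 0 fell, against 0.992% and 0.248% of all tested genes. MET16 (YALI0_B08140g), for a reductase of sulfate assimilation, rose 13-fold, to 214 and 379 CPM in the sur2 deletion libraries against 16 and 29.8 CPM in the parent libraries (log2 fold change 3.70 ± 0.50, edgeR's adjusted p = 0.018). ARO9 (YALI0_C05258g), weakly similar to an aromatic aminotransferase, rose 9.76-fold at low levels, with 18.8 and 34.8 CPM in the sur2 deletion libraries and 2.27 and 3.21 CPM in the parent libraries (edgeR's adjusted p = 0.0362). MET3 (YALI0_B08184g), for ATP sulfurylase, had the next smallest p, at 2.18 ± 0.47 (edgeR's adjusted p = 0.0862, DESeq2's 2.06e-04). With either parent library left out edgeR called none of these genes, or of any others, while 414 and 361 genes had an unadjusted p under 0.05 without the parent library of the transcript and of the gene table.

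By CPM the regulators annotated for this pathway did not differ beyond the spread between libraries. LEU3 (YALI0_D13904g) had 45.8 and 58.8 CPM in the sur2 deletion libraries and 49 and 50.6 CPM in the parent libraries, a log2 fold change of 0.07 ± 0.35 with a 95% interval of -0.74 to 0.89. The GCN4-like gene YALI0_E27742g had 395 and 443 CPM in the sur2 deletion libraries and 486.9 and 407.2 CPM in the parent libraries (-0.09 ± 0.40, 95% interval -1.01 to 0.82). The GCN2-like kinase gene YALI0_B14949g was at 0.28 ± 0.38. By CPM the groups of all 3 overlapped (edgeR's adjusted p = 0.971, 0.964 and 0.862). Deposited TPM in the gene table were higher in the sur2 deletion library than in the parent library for all 3. They were 19.69 against 10.13 for LEU3, 514.6 against 281.97 for the GCN4-like gene and 9.29 against 3.25 for the GCN2-like gene. In the transcript table they were lower, at 12.97 against 13.32, 381.95 against 446.48 and 5.75 against 6.39. These TPM differences were not tested. Gcn4 in S. cerevisiae is set mainly by translation, which mRNA levels do not show.

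**Figure D4:**
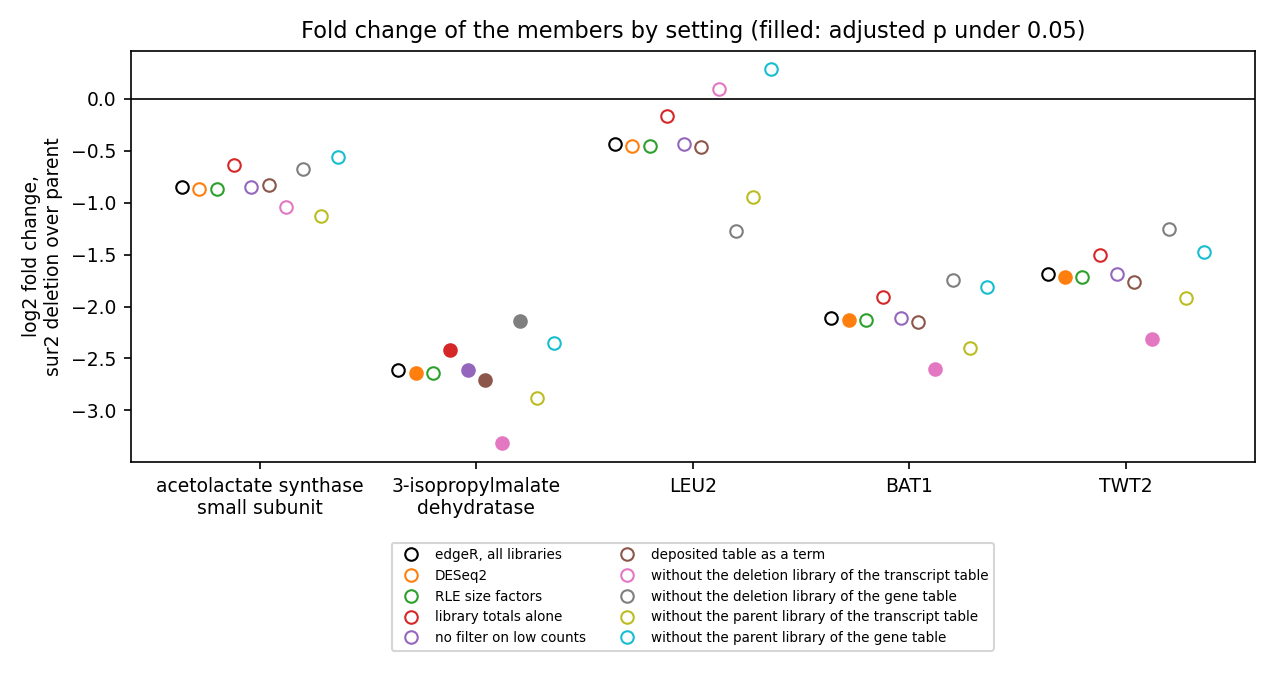
Log2 fold change, sur2 deletion over parent, of each member with all libraries in edgeR (black) and under 9 alternatives (colours), filled where the adjusted p over all genes is under 0.05. LEU2 is the only member whose values lie on both sides of 0, and the 3-isopropylmalate dehydratase gene passes under 6 of the 9 alternatives.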

How the data were processed

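Per the file headers, the authors deposited read counts and TPM per transcript for 1 library of each strain and per gene for the other. Counts are whole numbers. TPM are scaled by the authors for length and library size; the length they used is not given. A further 4 columns of per-library values were not used. Libraries were made with a stranded mRNA kit, per the labels' protocols. The aligner, counting tool, strand setting and genome build were not given in the sources used here, so reads of near-identical or overlapping genes may be shared; coordinates are those of the deposited tables. Column names give the strain and carry marks (Y1 or Y2, and a last number, which for Y2 differs between the strains) that the labels do not tie to their replicate numbers; they were not taken as replicate numbers.

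Counts of 8381 genes were joined by identifier; 1 gene is not used here. The chi-square per degree of freedom between the libraries of a strain was 299.5 for the sur2 deletion strain and 148.3 for the parent, so each library counted as 1 replicate; p-values measure only how these libraries differ, possibly for technical reasons. EdgeR 4.0.16 in R 4.3.3 was run with filterByExpr, trimmed mean factors (0.846 to 1.115), strain as the only term, two-sided tests and Benjamini-Hochberg adjustment over 6051 genes; SE is the log2 fold change over the root of F. DESeq2 1.42.0 was an alternative. Ratios within a table were taken on the log2 CPM scale (prior count 2), with no test. Counting intervals cover counting error only, and the upper limit for a gene without reads, 3 counts, was 0.18 to 0.342 CPM. The fit was tested on simulated data.

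The members, lists, tests and alternatives were chosen with earlier results of these data known. Other genes of the route, of breakdown and of other amino acids were taken by annotation text or symbol. Matches to CHA1-like deaminases, dehydrogenase kinases, regulators, a gene named only by its neighbour and genes of other functions were dropped on their annotation. Named genes are the members, the other synthesis genes, the called or 3 lowest-p genes of the other lists, and the 3 nearest profiles of each member; the other breakdown genes, the regulators and the neighbours of LEU2 are named too.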

Additional observations from a re-analysis of the deposited data

How the results depend on the processing

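The direction of the 3-isopropylmalate dehydratase gene, BAT1, TWT2 and the acetolactate synthase small subunit gene held under all 9 alternatives, and that of LEU2 under 7. No paired analysis was possible because nothing ties the marks in the column names (Y1 and Y2) to the labels' replicate numbers; the deposited table as a term, which is the same split as Y1 and Y2, is given instead. Scaling by library totals alone was chosen after seeing the data and moved the median of all genes to 0.21, against 0.03.

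EdgeR called 75 genes, 60 higher and 15 lower. DESeq2 called 386 (262 and 124), the table as a term 145 (112 and 33) and library totals 116 (99 higher). Leaving out 1 library gave 0 to 685 genes, 0 to 446 higher and 0 to 239 lower. DESeq2 put the log2 fold changes of the 3-isopropylmalate dehydratase gene, BAT1 and TWT2 at -2.64, -2.13 and -1.71, past the threshold. The dehydratase gene also passed without the filter at -2.62, with the table as a term at -2.71 and with library totals at -2.42 (adjusted p = 0.0475, 0.044 and 0.0305). With 1 library left out the dehydratase gene ran from -3.32 to -2.14, BAT1 from -2.61 to -1.74, TWT2 from -2.31 to -1.25, the small subunit gene from -1.12 to -0.56 and LEU2 from -1.27 to 0.28, being above 0 without the transcript table's sur2 deletion library (0.09) and without the parent library of the gene table (0.28). The cause was not tested.

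Of breakdown genes, DESeq2 called 4 lower, and leaving out 1 library 0 to 4, the same 4 without the transcript table's sur2 deletion library. Of the other synthesis genes, 0 to 1 were lower with 1 library left out (ILV3, without that library). Of the other amino acid genes, DESeq2 called 4 higher; with 1 library left out 0 to 6 were higher and 0 to 1 lower. Their median was 0.16 with library totals and -0.25 to 0.17 with 1 library left out. Of all tested genes DESeq2 called 2.05% lower and 4.33% higher, and the calls over all genes with 1 library left out are given in the paragraph above. A library alone in its arm was assumed to vary like the other strain's, and calls with 1 library left out rest on that assumption.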
